A study of Homo sapiens with 96 samples.

Results

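Tebuconazole and triticonazole are agricultural fungicides of the triazole class, and the results below describe how each changed the response of prostate cancer cells to an androgen. Their 6 arrays were taken by title from the 96 arrays of the series. LAPC4 is a human prostate cancer line that carries an androgen receptor, and each exposure lasted 6 h and began after 48 h of culture, per the labels' protocols. Tebuconazole at 20 uM with 0.33 nM R1881 had 3 arrays, and triticonazole at 10 uM with 0.33 nM R1881 had 3 arrays. The groups they were read against were 0.33 nM R1881 alone with 6 arrays and the solvent DMSO without R1881 with 6 arrays. At the dose of tebuconazole there were also 20 uM prochloraz with R1881 and 20 uM Bicalutamide with R1881, with 3 arrays each. Every group, with or without R1881, held DMSO at 0.05%. All arrays came from 1 cell line, no group received a triazole without R1881, and each triazole was tested at a single dose.

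The androgen receptor is a transcription factor that is held inactive in the cytoplasm until an androgen binds it, and then enters the nucleus and raises the transcription of genes such as FKBP5 and the kallikreins. R1881 is a synthetic androgen that cells break down slowly, and an antagonist given with it lowers the transcripts that it raises. Triazole and imidazole fungicides were designed to block CYP51, the fungal sterol demethylase, and some of them also bind the androgen receptor or steroid-producing enzymes of animals. Tebuconazole and triticonazole both carry a triazole ring, a tertiary alcohol and a chlorophenyl group. In tebuconazole the alcohol sits on an open chain that bears a tert-butyl group, and in triticonazole it belongs to a dimethylated cyclopentane ring joined to the chlorophenyl group by a double bond. Prochloraz is an imidazole fungicide, and Bicalutamide is a pharmaceutical antagonist of the androgen receptor.

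The values are log2 probe intensities as the authors deposited them, and 18571 genes were tested, each by its brightest probe. The 96 arrays fell into 2 expression clusters, A with 34 arrays and B with 62. Array 3 of each triazole lay in cluster A and arrays 1 and 2 in cluster B, and the controls were divided in the same proportion (2 of 6 R1881 arrays and 2 of 6 DMSO arrays in cluster A), so that the clusters were balanced in these comparisons. In contrast, 2 of 3 prochloraz arrays and 2 of 3 Bicalutamide arrays lay in cluster A. Across the series 5 arrays stood apart from their cluster, with correlations to its profile under 0.9, and none of them belonged to the groups used here, whose correlations ran from 0.985 to 0.998. A second fit left out those 5 arrays and carried the cluster as a block, and it is called the cluster-adjusted fit below. The design text gives 3 experiments on separate days, so some of the 6 arrays of a control must share a day, and control arrays of the same number (1 with 1b, and so on) lay closer to each other than arrays of different numbers, with median root-mean-square differences of 0.164 against 0.468 log2 units for R1881. The p-values below weigh a spread estimated within all 30 groups of the series, which in the fit with all arrays includes the 5 arrays that stood apart. The scatter among the control arrays is only a part of that spread, and some of it may be technical. Of the luminal prostate markers measured, 7 of 10 lay above the 75th percentile of the array in all 12 triazole and R1881 arrays, among them KRT8, FOXA1 and HOXB13, as did 0 of 6 basal markers, 0 of 6 leukocyte markers, 2 of 8 fibroblast markers (VIM and ACTA2) and 1 of 8 neuroendocrine markers (ENO2).

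R1881 alone changed 23 genes against DMSO (limma with Benjamini-Hochberg adjustment over all genes, adjusted p under 0.05), 22 of them upward (0.118% of all genes tested) and 1 downward (0.00538%). The gene furthest raised was SGK1, a kinase that regulates ion transport and cell survival, at 7.35-fold, followed by C1orf116 at 5.13-fold and by FKBP5, a chaperone of steroid receptors, at 3.74-fold. The only gene lowered in the fit with all arrays was CAMK2N1, an inhibitor of the calcium/calmodulin kinase CaMKII, at 1.80-fold. These genes serve below as the measure of the androgen response. KLK3, which encodes prostate-specific antigen, was not among them and lay near the median of all probes, with a log2 change of 0.10 (95% interval -0.11 to 0.31).

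In the fit with all arrays both triazoles lowered a small set of R1881-raised genes, and no gene was called higher. Tebuconazole changed 4 of 18571 genes against R1881 alone, all downward (0.0215% of the genes tested), and triticonazole changed 5, all downward (0.0269%), with limma adjusted p under 0.05. The 4 genes lowered by tebuconazole were UGT2B11, DIO2, S100P and FKBP5. Those lowered by triticonazole were UGT2B11, DIO2, S100P, FKBP5 and SGK1. Both comparisons use the same 6 R1881 arrays, as does the comparison of R1881 with DMSO, so that an R1881 array that reads high would move all of them together.

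UGT2B11 (probe ILMN_2162819), an enzyme of the family that attaches glucuronic acid to steroids and other lipids, gave the smallest p under both chemicals. Its log2 level was 8.19, 8.57 and 8.61 (lowest, median, highest) in the 6 R1881 arrays and 6.71, 6.78 and 6.88 in the 6 DMSO arrays. The 3 tebuconazole arrays read 7.25, 7.36 and 7.27, and the 3 triticonazole arrays read 6.85, 7.09 and 7.01. Every array of either triazole lay below every R1881 array; the tebuconazole arrays lay above all DMSO arrays, while the lowest triticonazole array fell among them. The log2 change against R1881 was -1.19 (SE 0.13, limma adjusted p = 8.91e-09) for tebuconazole, which is 2.28-fold, and -1.5 (SE 0.13, adjusted p = 7.27e-13) for triticonazole, or 2.83-fold. A second, dimmer UGT2B11 probe gave -0.70 and -0.81. UGT2B11 has close paralogs, among them UGT2B28, and whether its probes also bind their transcripts was not tested.

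DIO2 (ILMN_1737650), the deiodinase that turns the prohormone thyroxine into active thyroid hormone, was lowered to near the level without androgen. It read 8.25, 8.33 and 8.56 in the R1881 arrays and 6.64, 6.88 and 6.89 in the DMSO arrays (lowest, median, highest). It read 7.11, 7.14 and 6.96 under tebuconazole and 6.95, 6.75 and 6.86 under triticonazole. All 6 triazole arrays were below the R1881 arrays. The triticonazole values overlapped those of DMSO, while the tebuconazole arrays all lay above the DMSO arrays. The log2 changes were -1.30 (SE 0.23, limma adjusted p = 0.00351) and -1.51 (SE 0.23, adjusted p = 8.03e-05). The other DIO2 probe was dim, at a mean log2 level of 6.70, and gave -0.16 and -0.19.

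S100P (ILMN_1801216), a small calcium-binding protein, stood at 8.46, 8.74 and 9.24 in the R1881 arrays (lowest, median, highest) and at 7.12, 7.32 and 7.64 in the DMSO arrays. Its tebuconazole arrays read 7.48, 7.46 and 7.18 and its triticonazole arrays 7.26, 7.44 and 7.26. Both triazole groups lay wholly within the range of DMSO and wholly below that of R1881. The log2 change was -1.43 (SE 0.28, limma adjusted p = 0.0157) for tebuconazole and -1.48 (SE 0.28, adjusted p = 0.00792) for triticonazole.

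FKBP5 (ILMN_1778444) stood at 10.95, 11.31 and 11.62 in the R1881 arrays and at 9.29, 9.37 and 9.46 in the DMSO arrays (lowest, median, highest). It read 9.87, 10.04 and 9.74 under tebuconazole and 9.97, 9.75 and 9.89 under triticonazole. The values of both triazoles lay between the 2 controls, overlapping neither. The log2 changes were -1.39 (SE 0.28, limma adjusted p = 0.0211) and -1.41 (SE 0.28, adjusted p = 0.0144), 2.63-fold and 2.65-fold.

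SGK1 (ILMN_1702487) read 11.47, 11.83 and 12 in the R1881 arrays and 8.82, 8.93 and 8.98 in the DMSO arrays (lowest, median, highest). Triticonazole brought it to 9.48, 9.39 and 9.85, and under tebuconazole it read 10.54, 10.26 and 10.66. Here too each triazole group lay between the controls without overlap, with the triticonazole arrays nearer to DMSO. The SD was 0.21 within the R1881 arrays, 0.20 within tebuconazole and 0.24 within triticonazole, while the SE and intervals here rest on the spread within all 30 groups. The log2 change under triticonazole was -2.21 (SE 0.43, limma adjusted p = 0.0102), or 4.63-fold. Under tebuconazole it was -1.30 (95% interval -2.15 to -0.45), with a p of 0.00331 before adjustment and 1 after it in limma. The reading was thus higher under 20 uM tebuconazole than under 10 uM triticonazole, and because the doses differ the values stand side by side without a test. Of the 3 other SGK1 probes, 2 gave changes of -1.19 and -1.45 for tebuconazole and of -2.06 and -2.14 for triticonazole, and the third was dim and gave -0.004 and -0.021.

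**Figure D1:**
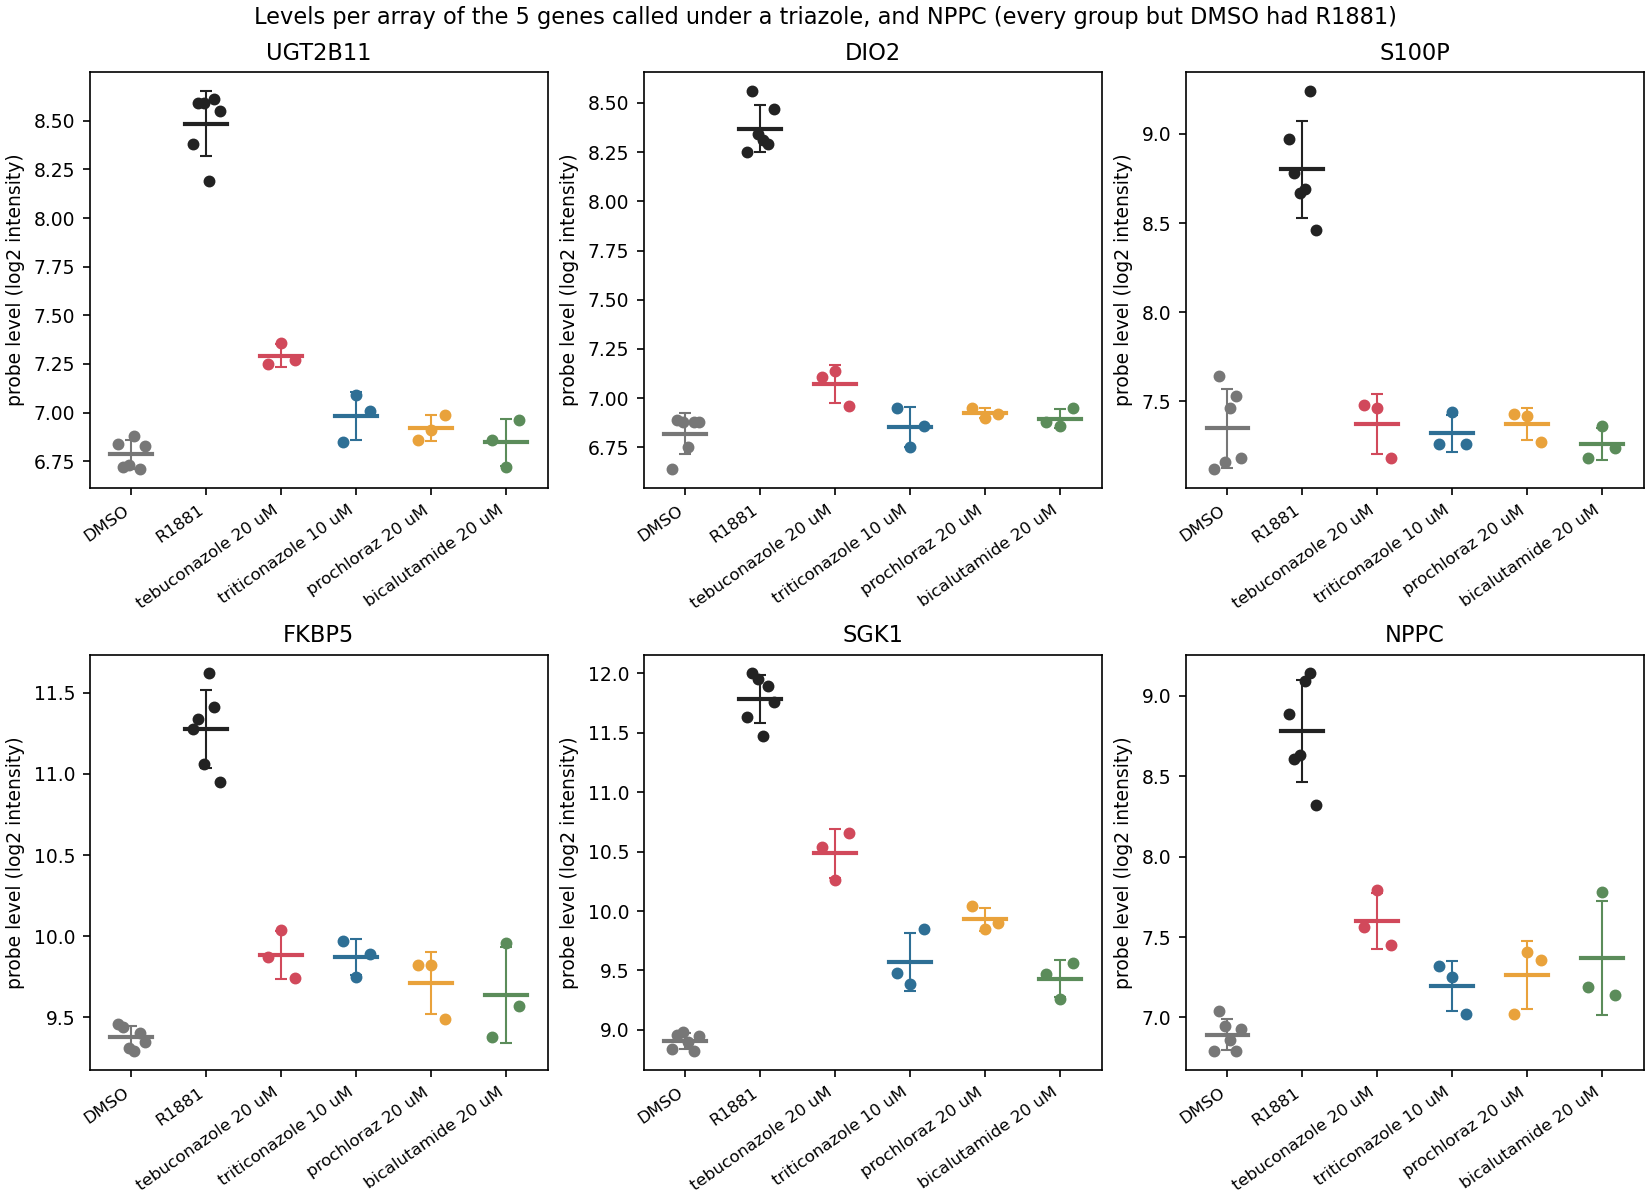
Log2 probe level of the 5 genes called under a triazole and of NPPC, 1 point per array, with the mean (bar) and SD (whisker) of each group; every group other than DMSO also received R1881. All triazole arrays lie below all R1881 arrays in each of the 6 panels, and in SGK1 the triticonazole arrays (9.39 to 9.85) lie below the tebuconazole arrays (10.26 to 10.66).

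The called genes moved the same way in both expression clusters. Within cluster A, which holds 1 array of each triazole and 2 of R1881, UGT2B11 differed from R1881 by -1.30 log2 units under tebuconazole and by -1.56 under triticonazole, and within cluster B by -1.14 and -1.47. For SGK1 under triticonazole the values were -2.01 in cluster A and -2.31 in cluster B. The calls for UGT2B11 under both triazoles and for DIO2 under triticonazole held under all 17 alternatives run, which changed the filter, the probes, the normalization or the model, or left out 1 array. The others were lost under some: FKBP5 under tebuconazole in 7 of 17, S100P under tebuconazole and FKBP5 and SGK1 under triticonazole in 5 each, S100P under triticonazole in 4, and DIO2 under tebuconazole in 3. Averaging control arrays of the same number left 1 call for tebuconazole and 2 for triticonazole, in place of 4 and 5. For tebuconazole 1 call was left without its array 1 or its array 3, and 2 without its array 2 or without R1881 array 2b. For triticonazole 2 calls were left without any 1 of its 3 arrays.

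The genes next in order of p did not pass the threshold. For triticonazole the next 5 genes by p were UGT2B28 with a log2 change of -0.82 (limma adjusted p = 0.0591), NPPC with -1.58 (0.0685), CLDN8 with -1.09 (0.352), MME with -0.61 (0.51) and NDRG1 with -1.45 (0.53). For tebuconazole they were NPPC with -1.18, NDRG1 with -1.25, UGT2B28 with -0.57, PHACTR3 with -0.46 and SGK1, each with an adjusted p of 1. The other MME probes were dim, at mean log2 levels of 6.59 to 6.71, and gave -0.002, -0.009 and 0.066 under triticonazole. NPPC encodes C-type natriuretic peptide, a ligand of a membrane guanylate cyclase. Its 6 R1881 arrays read 8.32, 8.76 and 9.14 (lowest, median, highest), its tebuconazole arrays 7.56, 7.79 and 7.45, and its triticonazole arrays 7.32, 7.25 and 7.02. The triazole arrays were all lower than the R1881 arrays and, under tebuconazole, all higher than the DMSO arrays, of which the highest read 7.04.

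For all 22 genes that R1881 raised, the log2 change was negative under both triazoles. It ran from -1.43 to -0.41 with a median of -0.79 under tebuconazole, and from -2.21 to -0.23 with a median of -1.06 under triticonazole, while the medians over all genes tested were -0.0024 and 0.0037. All 3 tebuconazole arrays lay below all 6 R1881 arrays for 16 of the 22 genes, against 0.862% of all genes, and all 3 triticonazole arrays did so for 19, against 0.738%. Since these 22 genes were picked because the same R1881 arrays read high, these counts describe them and do not test them. Tebuconazole arrays lay wholly above the DMSO arrays for 14 of the 22 genes (0.781% of all genes did) and triticonazole arrays for 6 (0.388%). Compared with DMSO in the model, a comparison added after the data were seen, 0 genes differed under either triazole with limma adjusted p under 0.05, with 53 and 46 genes at an unadjusted p under 0.05.

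Each gene's triazole level was also placed on the scale from the DMSO mean to the R1881 mean, as the percent of the log2 response that was left. Under tebuconazole the 23 R1881 genes kept between 1.6% and 72.8%, with a median of 35.4%, and under triticonazole between -1.8% and 69.4%, with a median of 23.1%. The same measure had medians of 18.3% for prochloraz and 12% for Bicalutamide, each with 2 of 3 arrays in cluster A. S100P kept least under tebuconazole, at 1.6% (SD 11.7, n = 3), and -1.8% (SD 7.2) under triticonazole. DIO2 kept 16.3% (SD 6.1) under tebuconazole and 2.3% (SD 6.4) under triticonazole, where UGT2B28 lay lower, at -0.8% (arrays from -14.7% to 13.6%). CAMK2N1, the gene that R1881 lowered, kept most under tebuconazole, at 72.8% (SD 30.4), and 21.9% (SD 24.4) under triticonazole.

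The means of several genes stood apart between the 2 triazoles, with triticonazole at 10 uM nearer to DMSO; the doses differ and no test was made. SGK1 kept 54.8% (SD 7.0) under tebuconazole and 23.1% (SD 8.5) under triticonazole. KCNK13, a potassium channel subunit, kept 51.4% (SD 6.1) and 19.3% (SD 5.0). CLDN8, a protein of tight junctions, kept 28.7% (SD 1.5) and 5.0% (SD 8.9). FKBP5 and S100P did not show this spacing, with FKBP5 at 26.7% (SD 8.0) and 26.1% (SD 5.8).

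The reverse order of the means was seen for KLK4, a kallikrein protease of prostate epithelium, at 31.1% (SD 26.9) and 48.8% (SD 18.9), where the arrays overlapped. It was seen too for ZFP36, which encodes a protein that destabilises AU-rich mRNAs, at 30% and 69.4%. For ZFP36 the triticonazole value came from 1 array: the 3 arrays read 8.82, 8.83 and 9.81, the last above the highest R1881 array at 9.6. Array 3 of triticonazole lay in cluster A, and whether that bears on the ZFP36 value was not tested.

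**Figure D2:**
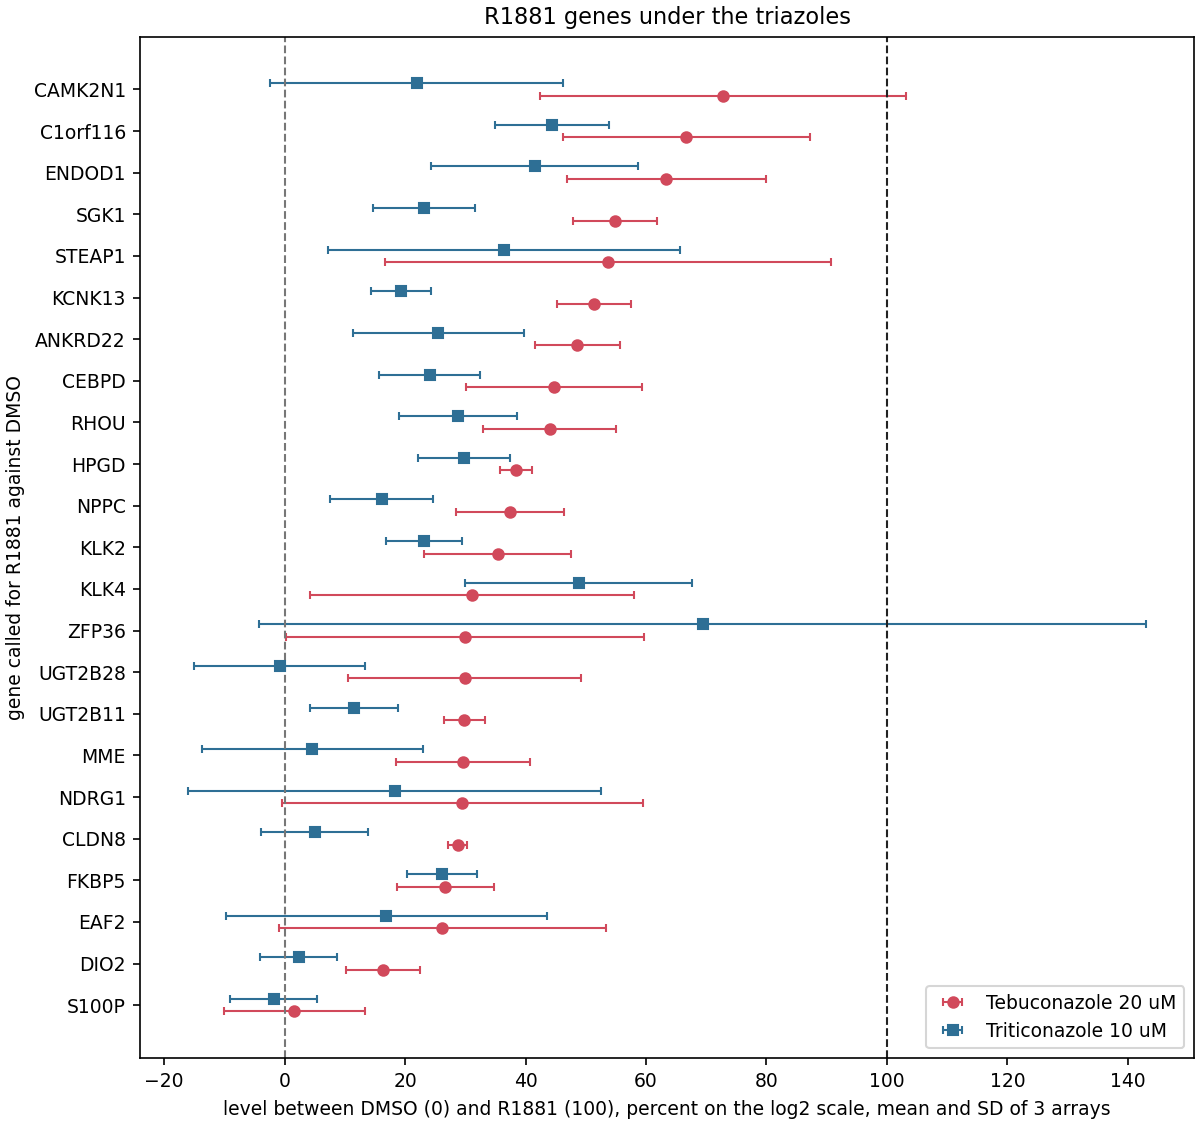
Level of each of the 23 genes called for R1881 against DMSO under tebuconazole (circles) and triticonazole (squares), in percent of the way from the DMSO mean to the R1881 mean on the log2 scale, as mean and SD of 3 arrays. Means run from 1.6% to 72.8% for tebuconazole and from -1.8% to 69.4% for triticonazole, with the widest SD for ZFP36 under triticonazole.

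A further measure let one set of control arrays choose the genes and another set the scale. R1881 and DMSO arrays 1 to 3 picked 5 genes that rose at least 1.5-fold (C1orf116, DIO2, FKBP5, SGK1 and UGT2B11), and arrays 1b to 3b then gave them a mean R1881 response of 2.06 log2 units. Of that response the 3 tebuconazole arrays kept 44.1%, 47.4% and 36.5% (mean 42.6%, SD 5.6). The 3 triticonazole arrays kept 22.2%, 23.1% and 25.1% (mean 23.5%, SD 1.5). Prochloraz kept 27.3%, 31.9% and 16.1%, and Bicalutamide 5.2%, 20.1% and 12.2%. Each tebuconazole array thus stood above every array of the other 3 chemicals, and the triticonazole arrays lay within the range of prochloraz and above that of Bicalutamide. The scale pooled both clusters, while 2 of 3 prochloraz and 2 of 3 Bicalutamide arrays lay in cluster A. Cluster A arrays read lowest for tebuconazole (36.5%), prochloraz (27.3% and 16.1%) and Bicalutamide (5.2% and 12.2%), but highest for triticonazole (25.1%). Whether the clusters bear on the order of the chemicals was not tested. Because arrays such as 1 and 1b resemble each other, the 2 sets of controls are separate arrays but may not be separate cultures.

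With the same division of the controls, all 5 genes read lower than R1881 arrays 1b to 3b under both triazoles, with medians of -1.22 and -1.47, and limma called 1 of them for tebuconazole and 2 for triticonazole, where 0.00538% and 0.0108% of all genes were called lower. In the cluster-adjusted fit arrays 1 to 3 picked 47 raised genes and 4 lowered genes. All 47 were negative under both triazoles, with medians of -0.57 for tebuconazole and -0.72 for triticonazole, and 11 and 21 of them had an adjusted p under 0.05, against 0.0646% and 0.135% of all genes called lower. All 4 lowered genes were positive, and 1 was called higher under triticonazole and 0 under tebuconazole. This division was also added after the data were seen.

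**Figure D3:**
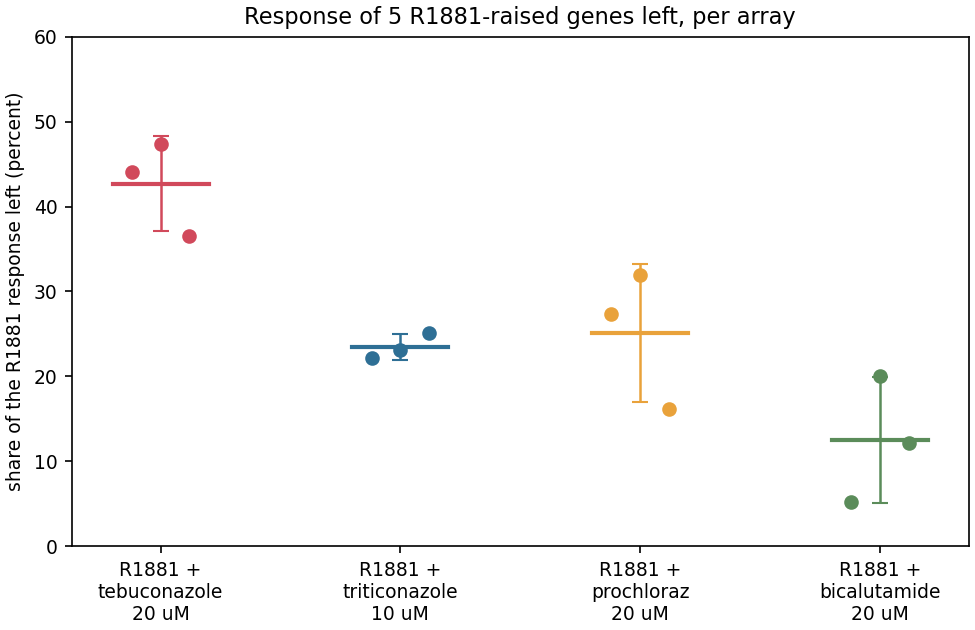
Share of the R1881 response left, in percent, for each array of the 4 chemicals, as the mean over 5 genes chosen on control arrays 1 to 3 and scaled on control arrays 1b to 3b; bars and whiskers are the mean and SD of 3 arrays. Tebuconazole (36.5% to 47.4%) lies above triticonazole at 10 uM (22.2% to 25.1%) and above both other chemicals at 20 uM. Of the 3 arrays, 2 lay in cluster A for prochloraz and for Bicalutamide, against 1 for each triazole.

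The cluster-adjusted fit, whose log2 changes against R1881 are the same and whose spread is smaller, called 24 genes lower and 1 higher for tebuconazole (0.129% and 0.00538% of genes) and 39 lower and 3 higher for triticonazole (0.21% and 0.0162%). For FKBP5 under tebuconazole the SE fell from 0.28 in the fit with all arrays to 0.13. Among the further genes with a lower level under both triazoles were NCAPD3, a condensin subunit, at -0.87 under tebuconazole (adjusted p = 0.000188) and -0.88 under triticonazole (7.18e-05), and FGF9, a secreted growth factor, at -0.79 (0.000682) and -0.67 (0.00668). SPDEF, an ETS transcription factor of luminal epithelium, fell by 0.77 (adjusted p = 0.0118) and by 1.14 (2.49e-06). RASD1, a small GTPase induced by glucocorticoids, fell by 0.82 (0.0181) and 0.76 (0.0345). SGK1 under tebuconazole was called here, with an adjusted p of 7.11e-06.

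The genes with a higher level in that fit were few. In the same fit R1881 against DMSO had 119 genes higher and 38 lower (0.641% and 0.205% of genes). All 24 genes lower under tebuconazole and all 39 lower under triticonazole were among those R1881 raised. The 1 and 3 genes higher under them were all among those R1881 lowered. The comparisons share the R1881 arrays, so these counts describe the genes and do not test them. PLPPR1, a membrane protein of the lipid phosphatase-related family, was higher under tebuconazole by 0.48 (adjusted p = 0.0126). SYTL2, which tethers secretory vesicles, was higher under triticonazole by 0.54 (0.00115), as were CAMK2N1 by 0.66 (0.0261) and FLRT3, a cell adhesion protein, by 0.61 (0.0451). FLRT3 and SYTL2 were not called under tebuconazole, with 0.39 and 0.26. The SYTL2 arrays read 8.72, 8.49 and 8.80 under triticonazole, 8.23, 8.32 and 8.64 under tebuconazole, and at most 8.36 under R1881 alone. The triticonazole arrays were therefore all above the R1881 arrays, as were those of 0.42% of all genes, while those of tebuconazole overlapped them.

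Against DMSO the cluster-adjusted fit showed what remained of the androgen response. With tebuconazole 4 genes were higher than in DMSO (0.0215% of genes), namely C1orf116 by 1.57 log2 units (adjusted p = 3.36e-08), SGK1 by 1.58 (4.5e-08), KCNK13 by 0.73 (0.0287) and UGT2B11 by 0.51 (0.0339). With triticonazole 1 gene was, C1orf116 by 1.05 (0.00399; 0.00538% of genes). No gene was lower than in DMSO with either triazole in this fit, in which 273 and 249 genes had an unadjusted p under 0.05.

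Gene lists for the androgen receptor and its neighbours were read by their counts. Of 41 measured androgen-induced genes, limma called 1 lower under tebuconazole (0.0215% of all genes were) and 2 lower under triticonazole (0.0269%). The log2 change was negative for 37 and 36, with medians of -0.36 and -0.48. The mean level of the 41 genes was 8.78 to 8.93 in the R1881 arrays and 8.03 to 8.19 in the DMSO arrays, against 8.42, 8.44 and 8.41 in the tebuconazole arrays and 8.25, 8.30 and 8.36 in the triticonazole arrays. On this mean each triazole array lay between the 2 control groups, and the tebuconazole arrays lay above the triticonazole arrays. The cluster-adjusted fit called 8 and 13 of the 41 genes lower, against 0.129% and 0.21% of all genes. TMPRSS2, a serine protease of the luminal epithelium, had log2 differences of -0.24 (95% interval -0.83 to 0.36) under tebuconazole and -0.73 (-1.32 to -0.14) under triticonazole, and KLK2, a kallikrein, of -0.79 and -0.94, all with a limma adjusted p of 1.

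Of 13 measured genes listed as androgen-repressed, 1 was called lower under each triazole, against 0.0215% and 0.0269% of all genes. That gene was UGT2B11, which R1881 raised in these cells, and the medians of the list were 0.05 and 0.02. The cluster-adjusted fit called UGT2B11 lower under both and CAMK2N1 higher under triticonazole. Of 17 glucocorticoid response genes, 1 was called lower under tebuconazole (FKBP5) and 2 under triticonazole (SGK1 and FKBP5), which are members of the androgen-induced list as well, and the medians were -0.17 and -0.15. The shares over all genes were again 0.0215% and 0.0269%. In the cluster-adjusted fit 2 and 6 of the 17 were called lower, with CEBPD, ERRFI1, PDK4 and ZBTB16 added under triticonazole.

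**Figure D4:**
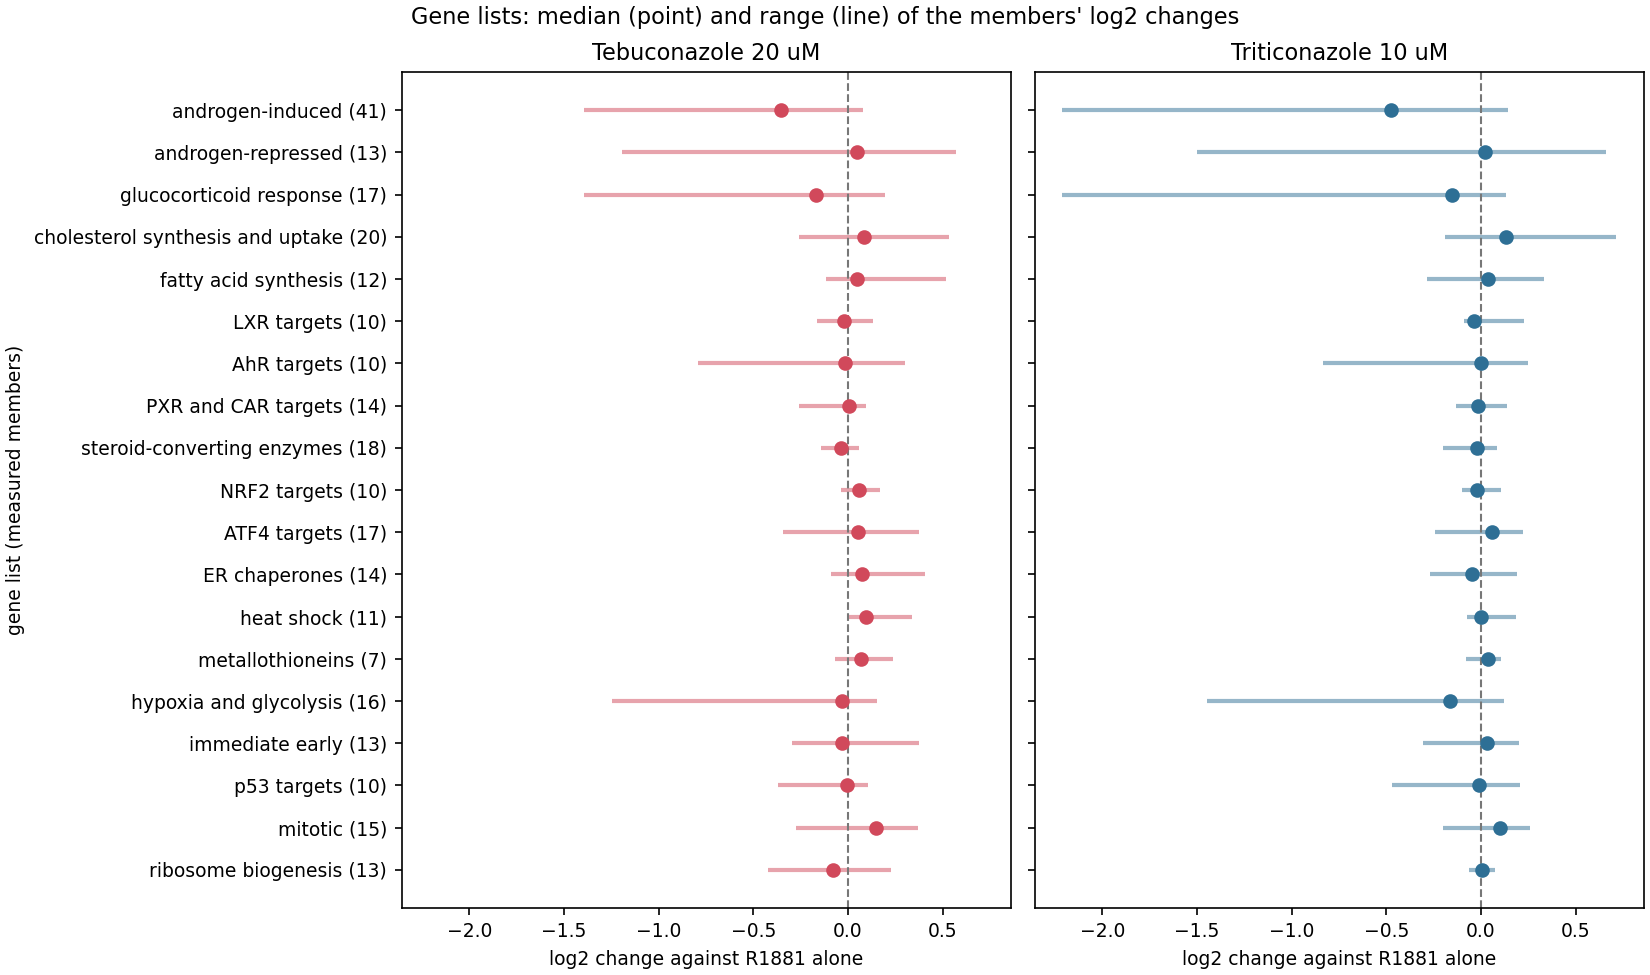
Median (point) and range (line) of the log2 changes against R1881 alone for the measured members of 19 gene lists, under tebuconazole (left) and triticonazole (right), with the number of measured members in brackets. The androgen-induced list has medians of -0.36 and -0.48, and the medians of the other lists lie between -0.17 and 0.15.

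The lists that bear on other actions of azoles held no called gene under either triazole, with all arrays or in the cluster-adjusted fit. These were the cholesterol list (20 measured genes), fatty acid synthesis (12), LXR targets (10), AhR targets (10), PXR and CAR targets (14) and the steroid-converting enzymes (18). With all arrays, at an unadjusted p under 0.05, there was 1 AhR target under each triazole, 1 steroid-converting enzyme under triticonazole and 0 other members. CYP51A1, the human counterpart of the enzyme these fungicides block in fungi, read 7.47, 7.29 and 8.79 under tebuconazole and 7.31, 7.42 and 8.12 under triticonazole, against 6.98, 7.65 and 8.69 (lowest, median, highest) under R1881. Array 3 was the highest of each triazole, as arrays 3 and 3b were among R1881 (8.43 and 8.69), all of them in cluster A. Both groups overlapped R1881. The log2 differences were 0.10 (95% interval -0.84 to 1.04) and -0.14 (-1.08 to 0.80), intervals that reach about 1 log2 unit and are not adjusted for cluster.

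The widest differences in the cholesterol list were those of INSIG1, which holds the sterol sensor SCAP in the endoplasmic reticulum, at 0.53 (95% interval -0.62 to 1.68) and 0.71 (-0.44 to 1.87), not adjusted for cluster. Within cluster A its triazole arrays read 11.18 and 11.60 and its R1881 arrays 10.81 and 11.09. Within cluster B the triazole arrays read 10.01 to 10.75 and the R1881 arrays 9.32 to 10. In the cluster-adjusted fit 1 of the 20 genes had an unadjusted limma p under 0.05 under each triazole, against 594 and 402 of the 18571 genes. The medians of that list were 0.08 and 0.13. In fatty acid synthesis the desaturase FADS2 differed by 0.52 (-0.41 to 1.45) and 0.22 (-0.71 to 1.16). CYP1A1, the AhR target that metabolises aromatic hydrocarbons, differed by -0.28 (-1.01 to 0.45) and 0.11 (-0.62 to 0.84), and CYP1B1 by -0.05 and -0.07.

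TIPARP, a poly(ADP-ribose) polymerase on both the AhR and the androgen list, was the AhR target with a p under 0.05, at -0.79 (95% interval -1.43 to -0.15) and -0.83 (-1.47 to -0.19) and a limma adjusted p of 1 under each triazole. Its triazole arrays read 7.95, 8.01 and 8.20 for tebuconazole and 7.74, 7.88 and 8.42 for triticonazole, and its R1881 arrays 8.18, 9 and 9.27 (lowest, median, highest). The highest tebuconazole array lay above the lowest R1881 array, and the highest triticonazole array above the R1881 arrays at 8.18 and 8.38, so both groups overlapped R1881. That overlap was between clusters. Within cluster A the triazole arrays read 8.20 and 8.42 and the R1881 arrays 9.27 and 9.24. Within cluster B the triazole arrays read 7.74 to 8.01 and the R1881 arrays 8.18 to 9.12. Among xenobiotic targets CYP3A4 differed by 0.05 (-0.07 to 0.16) and -0.04 (-0.16 to 0.07), and ALAS1, the first enzyme of haem synthesis, by -0.26 and 0.04. CYP17A1 and CYP19A1, which make androgens and oestrogens, differed by 0.04 and -0.06 under tebuconazole and by 0.09 and 0.01 under triticonazole, at levels near the median of all probes.

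With all arrays the stress and growth lists also held no called gene under either triazole: NRF2 targets (10 measured), ATF4 targets (17), endoplasmic reticulum chaperones (14), heat shock (11), metallothioneins (7), hypoxia and glycolysis (16), immediate early genes (13), p53 targets (10), mitotic genes (15) and ribosome biogenesis (13). Of all these, 1 gene had an unadjusted p under 0.05 under each triazole, NDRG1 in the hypoxia list, which R1881 raised. The cluster-adjusted fit called NDRG1 lower under both triazoles, by -1.25 (adjusted p = 0.0118) and -1.45 (0.000541), and no other member of these lists. Their medians ran from -0.08 to 0.15 under tebuconazole and from -0.16 to 0.10 under triticonazole. All 11 heat shock genes had a log2 change above 0 under tebuconazole, the largest 0.34 for the co-chaperone DNAJB1 (95% interval -0.50 to 1.17), and 6 of 11 did under triticonazole. Markers of luminal, basal, neuroendocrine, fibroblast and leukocyte cells held 0 called genes with all arrays. In the cluster-adjusted fit 1 of 10 luminal markers was called lower under tebuconazole (SPDEF) and 2 under triticonazole (SPDEF and KLK2), both of which are on the androgen-induced list as well, and 0 markers of the other cell types were called.

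At a matched dose of 20 uM, tebuconazole was compared with prochloraz, the imidazole fungicide, and with Bicalutamide. These were the 2 pairs tested, and triticonazole had no related chemical at 10 uM. Neither pair differed in any gene with limma adjusted p under 0.05, whether adjusted within the pair or over both pairs together, and 47 and 71 genes had an unadjusted p under 0.05. The intervals of the differences were wide, so that the absence of calls does not show that the chemicals acted alike.

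Among the R1881 genes, the UGT2B11 level under tebuconazole minus that under prochloraz was 0.37 (95% interval 0.06 to 0.68), and minus that under Bicalutamide 0.44 (0.14 to 0.75), with limma p-values of 0.0186 and 0.00531 before adjustment and 1 over both pairs. Its prochloraz arrays read 6.86, 6.91 and 6.99 and so lay below all tebuconazole arrays. SGK1 differed by 0.55 (-0.43 to 1.54) from prochloraz and by 1.06 (0.07 to 2.04) from Bicalutamide, and the cluster-adjusted fit called the latter, at 1.14 with an adjusted p over both pairs of 0.0298 (1 gene higher, 0.00538% of genes).

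For NDRG1, which androgens and low oxygen induce, the difference from Bicalutamide was 1.2 (0.33 to 2.07) and that from prochloraz 0.63 (-0.24 to 1.5), without adjustment for cluster. The R1881 arrays of cluster A read lowest for it, at 10.88 and 10.89. In the cluster-adjusted fit no member of the hypoxia list, NDRG1 included, exceeded 0.973 against Bicalutamide or 0.427 against prochloraz. These are the highest values of the list and are not both those of NDRG1. DIO2 differed by 0.15 (-0.38 to 0.68) and 0.17 (-0.36 to 0.70) from prochloraz and Bicalutamide, FKBP5 by 0.17 (-0.47 to 0.82) and 0.24 (-0.40 to 0.89), and S100P by -0.0011 (-0.64 to 0.64) and 0.11 (-0.53 to 0.76). For these 3 genes the intervals stayed under 1 log2 unit on either side.

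Outside the androgen response, the ATF4 targets and the cholesterol list are given for both pairs; whether the pairs differ from each other was not tested. Against prochloraz, 14 of 17 ATF4 targets had a negative difference, with a median of -0.23, against 0.0028 over all genes. Against Bicalutamide 12 of 17 were positive, with a median of 0.21, and in the cluster-adjusted fit the medians were -0.34 and 0.007. DDIT3, a transcription factor of the integrated stress response, read 8.04, 8.02 and 7.75 under tebuconazole and 8.45, 9.03 and 8.79 under prochloraz, against 7.61 to 7.90 under R1881. The prochloraz arrays lay above all others, and the difference was -0.82 (95% interval -1.45 to -0.18, limma adjusted p = 1). In the cluster-adjusted fit 2 genes were called lower (0.0108% of genes), ASNS, the asparagine synthetase, at -0.81 (adjusted p over both pairs 0.016) and CEBPB, a bZIP transcription factor, at -0.78 (0.0487). The ASNS arrays read 10.02, 10.19 and 9.58 under tebuconazole and 10.39, 11.10 and 10.15 under prochloraz. These groups overlapped, and the difference was -0.70 within cluster A and -0.99 within cluster B.

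In the cholesterol list, 17 of 20 measured genes had a positive difference from Bicalutamide, with a median of 0.31 against 0.0118 over all genes, and 16 of 20 a negative difference from prochloraz, with a median of -0.12. Limma called 0 of them in either pair, and 1 had an unadjusted p under 0.05 against Bicalutamide and 0 against prochloraz. In the cluster-adjusted fit 0 were called as well, and the medians were 0.25 and -0.14. There 7 of 20 had an unadjusted limma p under 0.05 in each pair, against 305 and 813 of the 18571 genes. HMGCS1, an early enzyme of cholesterol synthesis, read 11.20, 11.07 and 10.87 under tebuconazole and 10.01, 9.83 and 10.30 under Bicalutamide, against 10.55 to 11.20 under R1881. All Bicalutamide arrays were below the others, with a difference of 1.00 (95% interval 0.35 to 1.64, limma adjusted p = 1). ABCG1, a sterol exporter, read 7.30, 7.35 and 7.33 under tebuconazole and 7.90, 8.19 and 8.13 under Bicalutamide. That difference was -0.75 (-1.18 to -0.32, limma adjusted p = 1). For these genes the tebuconazole arrays lay within the range of R1881 alone.

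**Figure D5:**
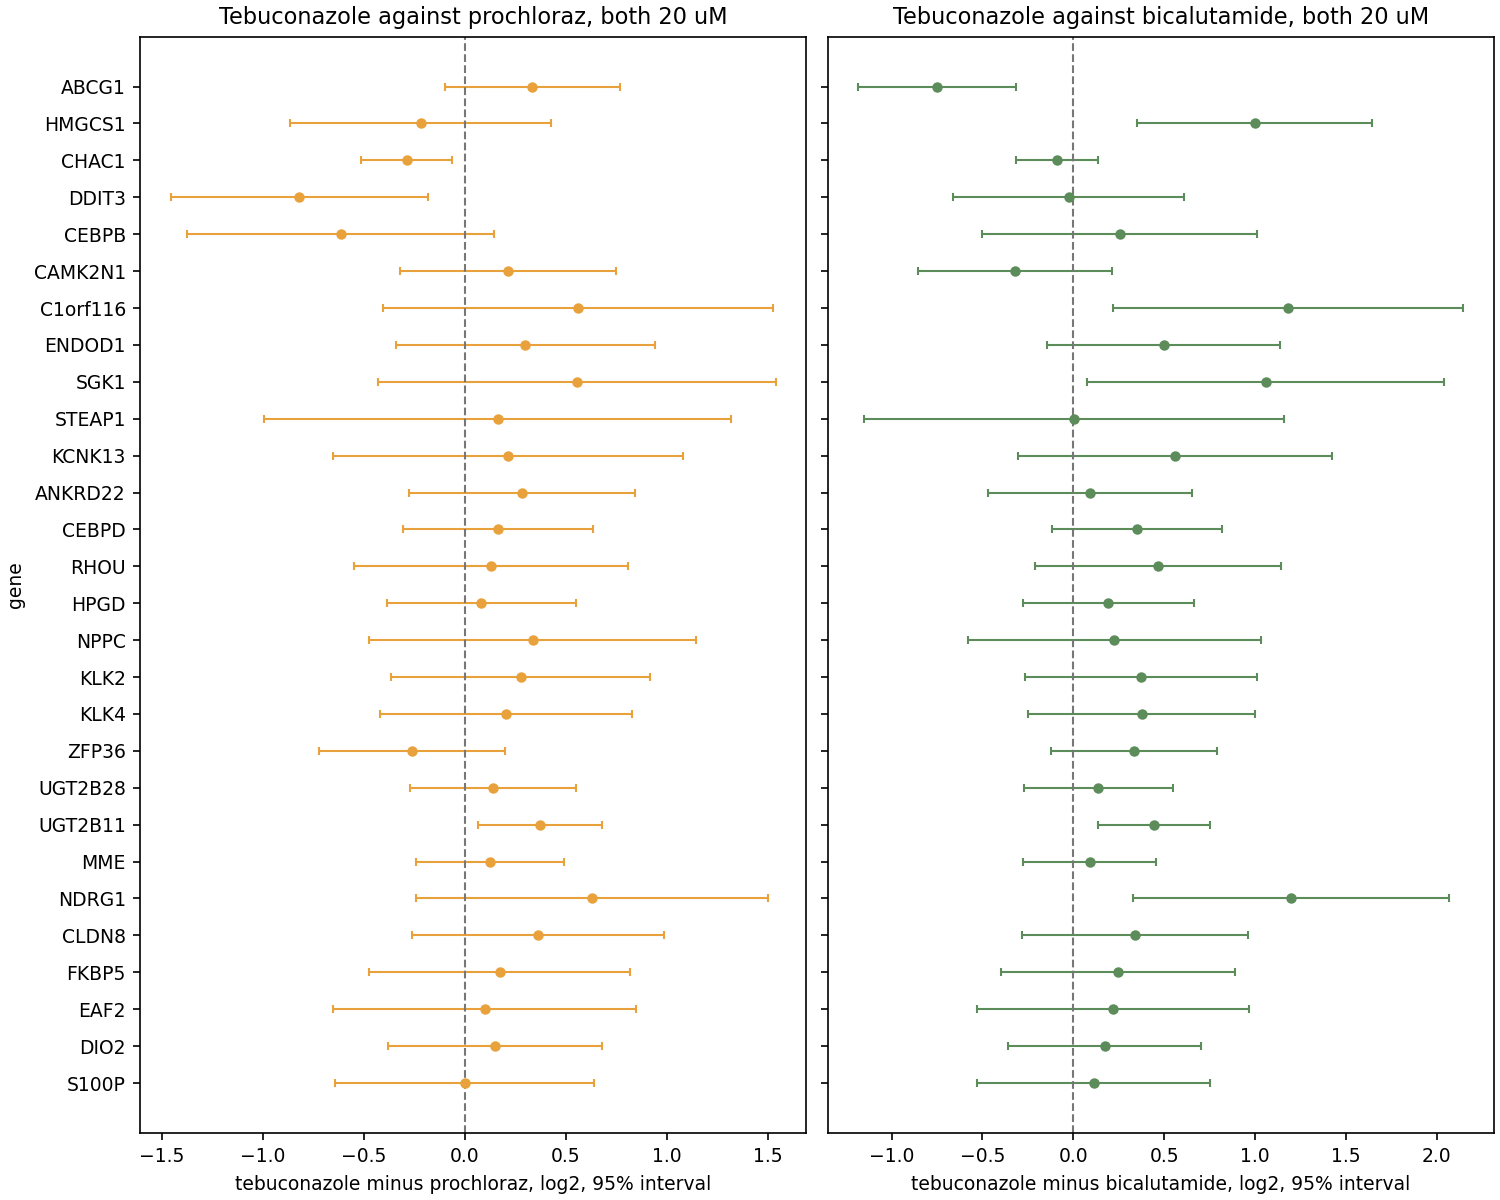
Differences in log2 level between tebuconazole and prochloraz (left) and between tebuconazole and Bicalutamide (right), all at 20 uM with R1881, for the 23 R1881 genes and for CEBPB, DDIT3, CHAC1, HMGCS1 and ABCG1, with 95% intervals from the fit with all arrays. No difference passed adjustment in this fit; HMGCS1 at 1.00 and ABCG1 at -0.75 stand out against Bicalutamide.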

How the data were processed

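Total RNA of LAPC4 cells was hybridized by the authors to Illumina Human HT-12 v4 arrays and scanned with iScan 3.3.28, per the series' design text, and the submitters' processing notes name limma. The deposited values are log2 intensities (6.316 to 14.15; array medians 6.7211 to 6.7212, so nearly equal between arrays), used without further normalization. No source used here says whether background was corrected, and the distance of a dim probe from background is unknown. For arrays, their number limits the precision.

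Of 48107 probes, 30113 had 1 gene symbol, 8 several and 17986 none listed. Probes above the median of the array in at least 3 arrays were kept (43820), and the brightest per gene stood for it. There were 191 missing values, left out array by array, and 2 tested genes lacked 1 in the 12 triazole and R1881 arrays. With limma 3.58.1 under R 4.3.3 (data.table in version 1.17.8), all 96 arrays entered a model holding the mean of each of 30 groups. The code of the fit was run on simulated data with independent noise smaller than that of the arrays. That simulation held no clusters, arrays that stand apart or related controls, so it does not bear on those. Clusters came from k-means on 2000 variable genes outside the androgen and glucocorticoid lists. The alternatives were another filter, probe average, normalization, sample set or weighting, a replicate block, averaged controls, the cluster-adjusted fit and arrays left out.

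The genes named were those called, the 5 next by p, the R1881 genes, the widest changes in each list and a few fixed genes. Genes called in the cluster-adjusted fit alone, and DDIT3, CHAC1, HMGCS1 and ABCG1, were chosen after their values were seen. The chemicals, lists and tests were chosen with earlier results of these data known.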

Additional observations from a re-analysis of the deposited data

Results flagged for a closer look

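Among 32 named genes, each tested in the 6 R1881 and the 6 DMSO arrays for a sample far from the others (Dixon's test), 2 of 64 groups held one, where chance flags about 1 in 20. PHACTR3, a regulator of protein phosphatase 1, read 6.77 in R1881 array 2b and 7.02 in the nearest of the other R1881 arrays. This array belongs to the control of both triazole comparisons, in which PHACTR3 differed by -0.46 under tebuconazole and -0.50 under triticonazole without passing adjustment in limma with all arrays. HPGD, the enzyme that inactivates prostaglandins, read 6.74 in DMSO array 1 and 6.88 in the nearest. Groups of 3 arrays were too small for this test.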

How the results depend on the processing

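No alternative turned the direction of a called gene. The counts of calls for tebuconazole and triticonazole against R1881 alone (4 and 5) and for R1881 against DMSO (23) became 7, 11 and 60 after cyclic loess, 11, 15 and 62 with only the compared groups in the model, 25, 42 and 157 in the cluster-adjusted fit, 1, 2 and 5 with controls of the same number averaged, and 558, 62 and 166 with array weights, whose estimation stopped before it converged. Leaving out 1 array gave 1 to 4, 2 to 6 and 19 to 23 calls. Tebuconazole against prochloraz (0) had 2 calls in the cluster-adjusted fit and 281 with array weights. Tebuconazole against Bicalutamide (0) had 1 with only the compared groups, 1 in the cluster-adjusted fit and 5550 with array weights. Tebuconazole against DMSO (0) had 1 with the mean of a gene's probes, 1 after cyclic loess, 1 with only the compared groups, 4 in the cluster-adjusted fit and 280 with array weights, and triticonazole against DMSO (0) had 1 in the cluster-adjusted fit. The cause of these shifts was not tested. The share of the response left under triticonazole (23.46%) was 20.79% after cyclic loess. Without 1 array it ran from 17.66% to 25.03%, and for tebuconazole (42.65%) from 35.85% to 45.73%, the lowest values when R1881 array 1 or 2 or DMSO array 1, 2 or 3 was left out and 4 genes were chosen.

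With the replicate block the 3 counts were 4, 6 and 29. Triazole and R1881 arrays of the same number correlated in their deviations from the group means at -0.16 to 0.93, over 0.1 in 10 of 12 pairs. Those of different numbers correlated at -0.91 to 0.75, over 0.1 in 6 of 24 pairs. The same-number pairs not over 0.1 were those of array 2 of each triazole with R1881 array 2. Arrays of the same number thus shared scatter in most pairs, which the main fit left out. The replicate block gave each number a single effect over all 30 groups. Numbers did not mark the same cluster in every group, with array 1 in cluster A for prochloraz and in cluster B for R1881. The block therefore need not carry all of that scatter. The 179 results against R1881 for named genes that were not called had 3043 alternative values, of which 158 were called and 60 had the other sign. The number of arrays, 3 for each triazole, limits the precision, and dim probes may understate changes.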
